A study of Mus musculus with 17 samples.

Results

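The data compared here describe how the hippocampus of kindled control mice responded to a last injection of pentylenetetrazol (PTZ), a blocker of GABA-A receptors that evokes convulsions. The libraries were chosen by their labels alone. They are the 2 libraries of the Control PTZ45 group and the 3 libraries of the Control PTZ0 group, 5 of the 17 libraries of the series. Both groups were C57BL/6J mice aged 3 to 6 months, and both had been kindled with injections of 45 mg/kg PTZ on alternate days, a treatment in which repeated doses of a convulsant come to evoke seizures. On the day of the experiment PTZ45 mice received 45 mg/kg PTZ and PTZ0 mice received saline. Hippocampi were collected 45 min later and total RNA was sequenced. By the methods of the study, controls were littermates of CBP-ifKO mice that lacked the Camk2a-creERT2 transgene and received the same 5 administrations of tamoxifen (20 mg/ml). A label of the control libraries also names Camk2a_creERT2. CBP-ifKO mice carried this tamoxifen-inducible Cre, which a Camk2a promoter drives in forebrain excitatory neurons, together with a floxed Crebbp gene. Crebbp encodes the lysine acetyltransferase CBP, and cells in which the promoter is silent keep the intact gene. The CBP-ifKO PTZ0 and PTZ45 groups, with 3 libraries each, and the Control Sal group, with 3 libraries of mice that were not kindled and received only saline, serve for comparison.

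When neurons fire in synchrony, calcium entry and ERK signalling act on transcription factors that are already present in the nucleus, such as CREB, SRF and MEF2. These switch on immediate early genes within minutes, without new protein synthesis. Some immediate early genes encode transcription factors (Fos, Egr1, Npas4) that act on a later wave of genes, some encode proteins that act at synapses (Arc), and some encode phosphatases and RNA-decay factors that end the signal (Dusp1, Zfp36).

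Libraries held 10512963 to 14057204 counts in PTZ0 and 12052333 to 14483561 in PTZ45. The methods state that saline-treated samples of this experiment came from individual male mice, and separate animals are not stated for the other groups, so the p-values measure the spread between these libraries. All PTZ0 libraries were sequenced in lane 3 and both PTZ45 libraries in lane 4, so lane and injection cannot be told apart in controls. Mitochondrial genes held 6.09 to 6.50% of the counts in PTZ0 and 7.51 and 8.62% in PTZ45. Among 76 marker genes of 13 cell types and neighbouring tissues, of which 74 were tested, 1 was called higher (Hbb-bs, a haemoglobin of blood) and 1 lower (Vtn, vitronectin), beside 1.18% and 0.0667% of all genes tested. The defining markers of hippocampal neurons were present in all libraries, with 1291 to 1554 normalized counts of Prox1 (dentate granule cells) and 659 to 885 of Wfs1 (CA1) in these 5 libraries. PTZ0 replicate 2 stood apart in 7 choroid plexus genes, whose main transcript Ttr had 774, 22268 and 499 normalized counts in PTZ0 and 550.1 and 418 in PTZ45. No gene of that list was called.

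After the last injection, 213 of 17982 genes tested were higher and 12 were lower (DESeq2, adjusted p under 0.05), which is 1.18% and 0.0667% of the genes tested, or 1.25% for both directions. Among the 213 genes, 36 rose at least 4-fold, 46 rose between 2-fold and 4-fold, and 131 rose by less than 2-fold. In all 213 genes both PTZ45 libraries were above all 3 PTZ0 libraries, a separation found in 17.6% of all genes tested. Protein-coding genes made up 160 of the 213, and the rest included 23 unclassified transcripts (type TEC), 7 lincRNAs and 5 antisense RNAs. The number of calls depended on single libraries. It was 131 without PTZ0 replicate 1 and 144 without PTZ0 replicate 2, which held the choroid plexus signal. The separation of the libraries already fixes a positive log2 fold change when a library is left out, so nothing is read from the sign. The number of genes called lower was 2 without PTZ0 replicate 1, 2 without PTZ0 replicate 3 and 149 without PTZ45 replicate 1.

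**Figure D1:**
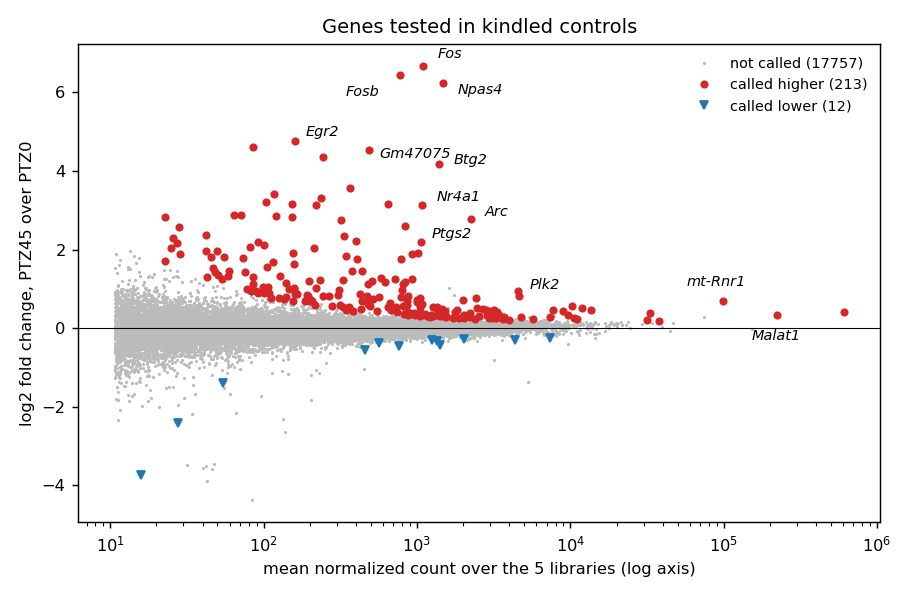
Each point is 1 of 17982 genes, with the mean normalized count over the 5 libraries on a log axis and the log2 fold change of PTZ45 over PTZ0 on the other. The 213 genes called higher reach 6.68, whereas 9 of the 12 called lower lie between -0.55 and -0.25 and the other 3 are weakly expressed genes at -1.40 and below.

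Transcription factors of the immediate early class showed the largest rises. Of 32 such genes, 30 were tested and 15 were called higher, none lower, beside 1.18% and 0.0667% of all genes tested, with a median log2 fold change of 0.74 beside -0.00 over all genes tested. The list summed to 6395 to 6834 normalized counts in PTZ0 and to 22821 and 26720 in PTZ45. Fos, a subunit of the AP-1 factor, had 23.7, 31.6 and 24.8 normalized counts in PTZ0 and 2915 and 2483 in PTZ45. The groups were far apart, and the difference was 102-fold, or 6.68 ± 0.19 on the log2 scale (SE, adjusted p = 9.7e-276). Fosb, another AP-1 subunit, had 23.7, 22.3 and 19.04 normalized counts in PTZ0 and 2154 and 1633 in PTZ45, a log2 fold change of 6.45 ± 0.21 (adjusted p = 4.1e-197). Npas4, a neuronal factor that responds to calcium entry, had 32.5, 66.8 and 46.7 normalized counts in PTZ0 and 3946 and 3293 in PTZ45, a log2 fold change of 6.23 ± 0.37 (adjusted p = 5.8e-62). In each of these genes replicate 1 of PTZ45 was the higher of the pair. Per kilobase of exon, Fos moved from rank 12046 among protein-coding genes in PTZ0 to rank 177 in PTZ45, Npas4 from 11987 to 299 and Fosb from 14000 to 1457.

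The EGR zinc-finger family responded with all of its 4 members. Egr2 had 12.3, 10.5 and 19.04 normalized counts in PTZ0 and 426 and 335 in PTZ45 (log2 fold change 4.75 ± 0.29), and Egr4 had 21.9, 25.8 and 24.8 against 279 and 234 (3.42 ± 0.26). Egr1 had 271, 253 and 299 against 1854 and 1474, a 6.05-fold difference. Egr3 started from 428 to 461 and reached 1739.5 and 1554 (1.88 ± 0.10). Both PTZ45 libraries were above all PTZ0 libraries in each of the 4 genes, as in 17.6% of all genes tested. Of the orphan nuclear receptors, Nr4a1 rose from 226 to 285 normalized counts to 2546 and 2050.2, with a log2 fold change of 3.14 ± 0.12. For Nr4a2 the log2 fold change was 1.92 ± 0.09, and for Nr4a3 it was 0.55 ± 0.11.

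Among the remaining AP-1 genes, Junb had 150.1, 182 and 138 normalized counts in PTZ0 and 1528 and 1231 in PTZ45 (log2 fold change 3.15 ± 0.13), whereas Jun rose by 0.98 ± 0.10 and Fosl2 by 1.12 ± 0.12. Ier2 (2.88 ± 0.32) and Atf3 (2.83 ± 0.54) were also called, Atf3 from a low level of 4.39 to 8.57 normalized counts. The other 15 tested members were not called. They included Jund (log2 fold change 0.36), Crem (0.45), Klf4 (0.68), Klf2 (0.57), Nfil3 (0.77) and Myc (-0.32). Of the 30 tested, 28 had a positive log2 fold change and 20 had an unadjusted p under 0.05.

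**Figure D2:**
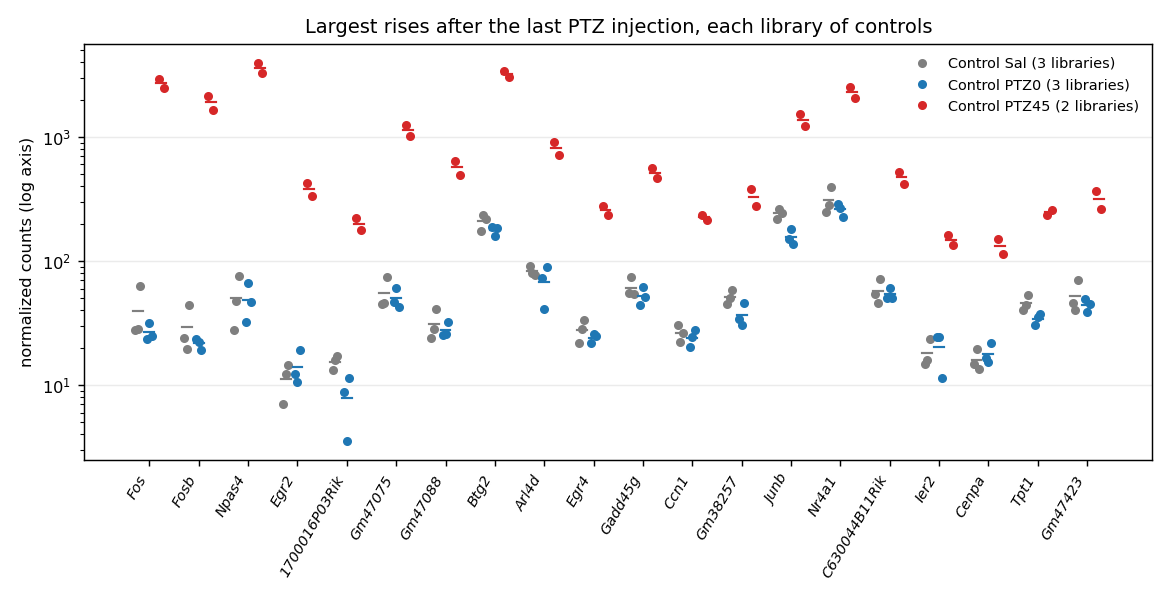
Normalized counts on a log axis of the 20 largest rises (mean count 50 or more), for each library of Control Sal, PTZ0 and PTZ45, with lines at group means. In each gene both PTZ45 points lie above all points of the other groups, as for Npas4 at 3946 and 3293 and Fos at 2915 and 2483.

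Genes listed as synaptic and cytoplasmic effectors were called higher in 15 of 25 cases and lower in none, beside 1.18% and 0.0667% of all genes tested. Their median log2 fold change was 0.60. Arc, which drives internalisation of AMPA receptors, had 669, 684 and 663 normalized counts in PTZ0 and 4921 and 4272 in PTZ45. Its PTZ0 libraries lay closer together than those of Fos or Npas4, and its log2 fold change was 2.77 ± 0.08 (adjusted p = 1.8e-240). Arl4d, a small GTPase, had 72.9, 41.0 and 89.5 against 912 and 709 (3.57 ± 0.41), and Gadd45g, a stress and growth-arrest protein, had 43.9, 62.1 and 51.4 against 562 and 469 (3.31 ± 0.19). Ptgs2, the inducible cyclooxygenase, had 418, 433 and 459.9 against 2274 and 1714 (2.19 ± 0.12). The G-protein regulators Rgs2 and Rgs4 rose by 1.76 and 0.76 on the log2 scale, and Ppp1r15a, which directs dephosphorylation of the initiation factor eIF2α, by 2.04. Plk2, a kinase that weakens synapses after strong activity, was among the most abundant members, with 3349.7 to 3668 normalized counts in PTZ0 and 6196 and 6288 in PTZ45 (0.81 ± 0.07). The 10 members that were not called included Sgk1 (0.24), Plk3 (0.56) and Kcnj4 (-0.25).

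Inhibitors of the same signalling responded within the same 45 min. Of 32 tested, 11 were called higher and none lower, beside 1.18% and 0.0667% of all genes tested, and the median log2 fold change was 0.32. Btg2, an antiproliferative protein that promotes mRNA deadenylation, had 189, 159 and 183 normalized counts in PTZ0 and 3391 and 3032 in PTZ45, a log2 fold change of 4.17 ± 0.10, and per kilobase of exon moved from rank 6943 to rank 171. Dusp1, a nuclear phosphatase of MAP kinases, had 86.03, 109 and 95.2 against 680.1 and 617 (2.75 ± 0.16). Dusp6, a cytoplasmic phosphatase of ERK, had 534, 658 and 607 against 1528 and 1339.6 (1.26 ± 0.11). In each of these genes both PTZ45 libraries were above all PTZ0 libraries, as in 17.6% of all genes tested. Zfp36, which destabilises AU-rich mRNAs, rose by 1.95, Errfi1, an inhibitor of EGF receptors, by 1.18, and Sik1, a kinase that restrains CREB coactivators, by 1.03. Dusp5, Spry2, Btg1, Tob1 and Zfp36l1 rose by 0.49 to 0.94. The EGR corepressors Nab1 (0.20) and Nab2 (0.00) and the NF-κB inhibitor Nfkbia (0.02) were not called.

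Late response genes and secreted factors were called in 2 of 21 cases, beside 1.18% of all genes tested, with a median log2 fold change of -0.01. These were Scg2, a granin of secretory vesicles (0.45 ± 0.07), and Nptx2, a pentraxin that clusters AMPA receptors (134, 124 and 114 normalized counts in PTZ0 against 231 and 171 in PTZ45, 0.69 ± 0.20, adjusted p = 0.048). The call of Nptx2 was lost in 10 of 16 alternative analyses. Bdnf, the neurotrophin, had 569.7, 599.7 and 602 against 738 and 678. Both PTZ45 libraries were above all PTZ0 libraries, as in 17.6% of all genes tested. The difference of 0.26 ± 0.10 did not pass the test (adjusted p = 0.33). Counts per gene sum over all Bdnf promoters. Penk (0.28), Pdyn (-0.29), Npy (-0.13) and Vgf (0.10) were not called.

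None of 31 tested genes that carry the signal to the nucleus, among them Creb1 (log2 fold change -0.01), Srf (0.14), Mef2c (0.17), Camk4 (0.14) and Crebbp (0.16), was called by DESeq2, a share near the 1.18% of all genes called higher, and 4 had an unadjusted p under 0.05. The median was -0.00, and the activity of these kinases and factors was not measured. Of 18 genes of the GABA-A receptor and the GABA synapse, where PTZ acts, 1 was called higher, beside the same 1.18%. This was the receptor subunit Gabra3, with 578, 628 and 568 normalized counts in PTZ0 against 851 and 781 in PTZ45 (0.47 ± 0.10), a call lost in 6 of 16 alternatives.

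**Figure D3:**
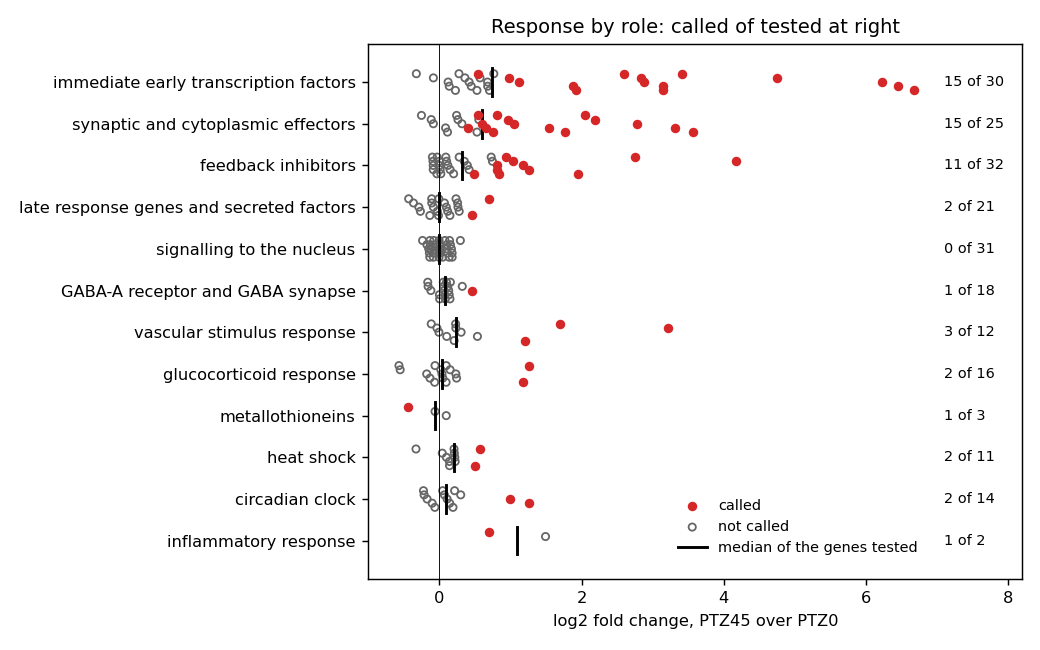
Each point is the log2 fold change of PTZ45 over PTZ0 of a tested gene in 12 lists ordered by role, filled where called, with a line at the median of the list. Medians are 0.74 for immediate early transcription factors, 0.60 and 0.32 for effectors and feedback inhibitors and -0.01 and -0.00 for late response genes and signalling to the nucleus, while the inflammatory list (1.09) and the metallothioneins (-0.06) hold 2 and 3 tested genes.

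Genes that respond to a stimulus in vessel walls were called in 3 of 12 cases, beside 1.18% of all genes tested. Ccn1, a secreted matricellular protein, had 20.2, 24.6 and 27.6 normalized counts in PTZ0 and 234 and 214 in PTZ45 (3.22 ± 0.27). Apold1, an endothelial early response protein, had 48.3, 71.4 and 63.8 against 217 and 176 (1.69 ± 0.24), and Adamts1, a secreted protease, rose by 1.21 ± 0.14. In this list the other 9 genes were not called, among them Ccn2 (0.54). The endothelial markers summed to 2296 to 2476 in PTZ0 and 2210 and 2291 in PTZ45. Mural and fibroblast markers summed to 3582 to 3764 in PTZ0 and 3188 and 3588 in PTZ45, and 0 of 7 had a positive log2 fold change. Fewer cells of a type and less RNA per cell cannot be told apart in bulk tissue. Blood markers summed to 846 to 1043 in PTZ0 and to 1410 and 1709 in PTZ45, and 5 of 5 had a positive log2 fold change, with Hbb-bs called (0.78 ± 0.12). The part of blood in the vascular and other results was not tested.

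Among genes that respond to corticosterone, to heat or to the daily cycle, 2 were called higher in each list, beside 1.18% of all genes tested. Among 16 glucocorticoid response genes Per1 and Errfi1 were called, and Fkbp5 (-0.13), Tsc22d3 (-0.18) and Sgk1 (0.24) were not. Per1, a repressor of the circadian clock, had 462, 447 and 478 normalized counts in PTZ0 and 1269.9 and 948 in PTZ45 (1.26 ± 0.12). Ciart (0.99 ± 0.20), which also represses the clock, was the other one called of 14 circadian genes, while Per2 (-0.10), Dbp (-0.22) and Nr1d1 (0.19) were not. The J-domain cochaperones Dnajb1 (0.57) and Dnaja1 (0.50) were called among 11 heat shock genes, and Hspa1a (0.04) and Hsp90aa1 (0.21) were not. Of 12 inflammatory genes only 2 passed the filter on low counts, and Nfkbiz, a nuclear IκB protein, was called (0.69 ± 0.17). The cytokine Il1b had 0.88 to 2.34 normalized counts in PTZ0 and 11.5 and 8.69 in PTZ45. Ccl3, another cytokine, had 0.00 to 2.86 and 12.4 and 9.78. Both genes were too low for an adjusted p. Their PTZ45 libraries were above all PTZ0 libraries, as in 17.6% of all genes tested.

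Several genes outside these lists were among the largest rises. 1700016P03Rik, a non-coding transcript that spans the genes of miR-212 and miR-132, had 8.78, 3.51 and 11.4 normalized counts in PTZ0 and 221 and 179 in PTZ45 (4.62 ± 0.38). It lies at chr11:75172560-75177633 on the + strand of GRCm38 and overlaps Ovca2 on the other strand, a gene named after its values were seen, which had 128, 131 and 120.0 against 677 and 616 (2.35 ± 0.14). Whether strand was used in counting is not stated, so reads of these overlapping genes cannot be told apart. The microRNAs themselves are too short for this assay and were not measured. Their mature sequences (RefSeq, GRCm38.p6) are shown because their primary transcript lies in a gene that rose, with the seed, bases 2 to 8, in capitals and in the order in which they lie on the chromosome, from chr11:75173403-75173425 to chr11:75173723-75173744.
mmu-miR-212-5p: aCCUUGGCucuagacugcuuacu
mmu-miR-212-3p: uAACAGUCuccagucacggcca
mmu-miR-132-5p: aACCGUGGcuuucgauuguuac
mmu-miR-132-3p: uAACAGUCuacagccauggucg
The seeds of miR-212-3p and miR-132-3p are the same, AACAGUC, and those of the 5p arms differ.

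Of the 213 genes, 30 lay wholly inside another gene on the same strand. Among them were 21 unclassified or sense-intronic transcripts inside 18 protein-coding genes. They were 21 of 1291 such transcripts tested, a share near the 1.18% of all genes called higher. None of the 21 overlapped an annotated exon of its host, as held for 1251 of the 1291. Gm47075 and Gm47088, which rose most, lie within an intron of Homer1, a postsynaptic scaffold gene that also gives rise to a short, activity-induced protein. Gm47075 (chr13:93312041-93314055) had 46.5, 60.9 and 42.8 normalized counts in PTZ0 and 1258 and 1020.2 in PTZ45 (4.52 ± 0.17), and Gm47088 (chr13:93317427-93319065) had 25.5, 25.8 and 32.4 against 644 and 498 (4.35 ± 0.22). Homer1, counted over its exons, had 2746, 2901 and 3098 against 3935 and 3811 (0.41 ± 0.07). The host thus differed much less than the transcripts in its intron. C630044B11Rik rose by 3.14 ± 0.19 inside Ntrk2, the receptor of BDNF, whose own exons gave 0.08 ± 0.06 and no call, and Gm38257 rose by 3.15 ± 0.24 inside Arl5b (0.60 ± 0.11).

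These 21 transcripts had log2 fold changes of 0.73 to 4.52, with a median of 1.63, beside a median of 0.11 over their 18 hosts, of which 5 were called higher. They lay near the start of the host. Of the 21, 17 (81.0%) began within 20 kb of the host's annotated start, at a median distance of 8.58 kb, whereas this held for 23.2% of all 1291 tested transcripts of these types inside a protein-coding gene, with a median of 67.1 kb. The distance of 20 kb was chosen after the values were seen, and no test was made. Relative to the length of the host, the median start lay at 18.3% of its span beside 41.3% in all 1291, and 14 of the 21 (66.7%) began in the first 25% of the host beside 31.0%. In all 21 both PTZ45 libraries were above all Sal libraries too, as in 16.7% of all genes tested. The call of 13 of the 21 was lost in at least 1 alternative.

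Of the genes that follow, those other than Tpt1, Snora31 and Cenpa were named after their values were seen. Tpt1, an abundant growth-related protein, had only 30.7, 35.1 and 37.1 normalized counts in PTZ0 and 236 and 259 in PTZ45 (2.85 ± 0.24), and Snora31, a small nucleolar RNA inside it, rose by 2.16 ± 0.48. Tpt1, Actg1, Rpl10, Rpl21 and Ptma have near-identical copies elsewhere in the genome, and since reads of low mapping quality were discarded their counts are uncertain. Cenpa, a centromeric histone, rose by 2.88 ± 0.33 from 15.2 to 21.9 normalized counts. Tiparp (1.29 ± 0.11), Ifrd1 (1.16 ± 0.11), the potassium channel Kcnj2 (1.13 ± 0.13) and the histone demethylase Kdm6b (0.99 ± 0.21) also rose. Hnrnpa2b1, an RNA-binding protein, rose by 0.94 ± 0.06 from a level of 3257 to 3426 normalized counts.

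The promoters of the strongly responding genes were searched for short motifs from 250 bases before to 50 after the RefSeq start. The full cAMP response element (CRE) TGACGTCA was present in 6 of the 40 protein-coding genes that rose at least 2-fold and have an entry (15.0%), beside 3.48% of 10868 tested protein-coding genes with one. The core TGACG on either strand, which each full CRE also contains, was present in 26 of 40 (65.0%) beside 34.3%, and the CArG box of SRF in 3 of 40 (7.5%) beside 1.53%. The AP-1 site TGANTCA was present in none of the 40 beside 6.01%, and the EGR site GCGTGGGCG in 1 (2.5%) beside 1.37%. Of the 88 genes that rose by less than 2-fold, 5.68% had the full CRE and 53.4% the core. A match is a string of letters and not evidence of binding, and the windows hold no entry for Arc, Egr3 and Ier2. The windows of 4 strongly responding genes are shown for the positions of their matches, bases 250 to 1 before the start, with matches in capitals.
Fos: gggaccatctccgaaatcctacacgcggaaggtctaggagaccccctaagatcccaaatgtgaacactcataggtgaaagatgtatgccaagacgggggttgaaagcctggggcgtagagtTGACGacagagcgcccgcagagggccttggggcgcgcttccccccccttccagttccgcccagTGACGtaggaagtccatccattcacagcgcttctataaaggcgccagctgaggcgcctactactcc
Btg2: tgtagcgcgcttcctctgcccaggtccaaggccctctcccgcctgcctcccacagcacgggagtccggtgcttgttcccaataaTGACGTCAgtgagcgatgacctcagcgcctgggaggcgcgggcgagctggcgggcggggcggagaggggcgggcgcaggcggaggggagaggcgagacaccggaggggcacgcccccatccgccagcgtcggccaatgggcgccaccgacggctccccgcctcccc
Arl4d: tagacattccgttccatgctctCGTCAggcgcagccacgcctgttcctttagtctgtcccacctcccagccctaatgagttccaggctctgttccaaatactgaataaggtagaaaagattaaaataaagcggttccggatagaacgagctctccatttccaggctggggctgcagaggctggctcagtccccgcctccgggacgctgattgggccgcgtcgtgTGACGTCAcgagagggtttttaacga
Nr4a1: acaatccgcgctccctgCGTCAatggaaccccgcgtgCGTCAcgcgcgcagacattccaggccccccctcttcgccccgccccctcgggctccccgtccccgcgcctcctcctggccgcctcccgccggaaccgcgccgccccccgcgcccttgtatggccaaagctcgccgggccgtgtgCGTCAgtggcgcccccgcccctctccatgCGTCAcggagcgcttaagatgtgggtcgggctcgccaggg
The Fos window (chr12:85473640-85473889, + strand, GRCm38.p6) holds the core at 129 to 125 and at 66 to 62 bases before the start. The full CRE lies 166 to 159 bases before the start in Btg2 (chr1:134079156-134079405, - strand) and 26 to 19 bases before it in Arl4d (chr11:101665291-101665540, + strand). Nr4a1 (chr15:101266596-101266845, + strand) holds 4 cores, at 233 to 229, 213 to 209, 69 to 65 and 40 to 36 bases.

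The genes that rose most were short and had few exons. The 22 protein-coding genes that rose at least 4-fold had a median span of 4.09 kb and 3.5 exon blocks, those that rose by less than 2-fold 14.1 kb and 7, and all tested protein-coding genes 26.5 kb and 10. The size of the response also differed between the PTZ45 libraries. Replicate 1 was above replicate 2 in 69 of the 82 genes that rose at least 2-fold (0.456% of the genes tested), with medians of 1.93 and 1.75 above the PTZ0 mean on the log2 scale, in 64 of the 131 genes that rose by less than 2-fold, and in 9141 of all 17982. Replicate 2 was the higher in all 8 mitochondrial genes that were called.

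The most abundant genes called higher changed little in relative terms. The mitochondrial ribosomal RNAs mt-Rnr2 (0.40 ± 0.07) and mt-Rnr1 (0.70 ± 0.07), mt-Cytb (0.39 ± 0.08) and the nuclear non-coding RNAs Malat1 (0.34 ± 0.06) and Meg3 (0.19 ± 0.05) were called. The call of Meg3 was lost in 12 of 16 alternatives. mt-Rnr1 had 76196 to 80879 normalized counts in PTZ0 and 116010 and 139830 in PTZ45, but the Sal libraries ran from 66463 to 113870.

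These smaller changes moved with base composition. Over 12979 genes (mean count 50 or more), the log2 fold change fell with the GC content of the longest transcript (Spearman's rho -0.52, across genes that share the 5 libraries), from a median of 0.09 in 4088 genes under 45% GC to -0.14 in 2510 genes over 55%. In CBP-ifKOs, where all PTZ0 and PTZ45 libraries were sequenced in lane 5, rho was -0.45. The median GC content was 50.7% in genes that rose at least 4-fold, 43.5% in the 83 that rose by less than 1.5-fold, 56.1% in the 12 called lower and 48.3% in all genes tested. With a correction for GC content 79 of the 82 genes that rose at least 2-fold stayed called, as did 90 of the 131 that rose less and 4 of the 12 called lower.

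**Figure D4:**
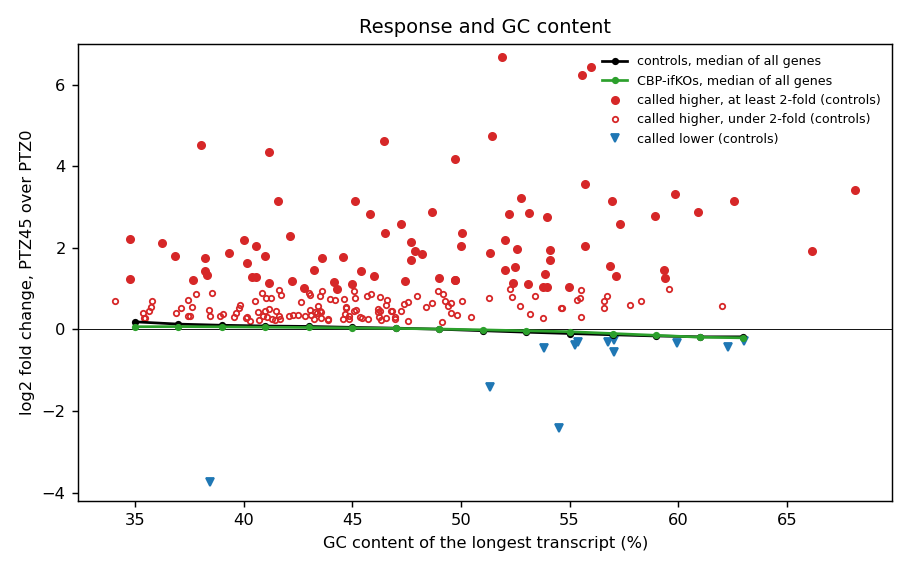
Log2 fold change of PTZ45 over PTZ0 against the GC content of the longest transcript in percent, with points for the genes called in controls and lines for the median of all genes (mean count 50 or more) in controls and in CBP-ifKOs. Genes that rose by less than 2-fold have a median of 44.6% GC, where the lines are above 0, and genes called lower a median of 56.1%, where they are below 0.

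Few genes were lower after the last injection. Mt3, a brain metallothionein that binds zinc, had 1605, 1664 and 1469 normalized counts in PTZ0 and 1230.1 and 1098 in PTZ45, a log2 fold change of -0.44 ± 0.09 (adjusted p = 0.00011). Mt1 (0.10) and Mt2 (-0.06) were not called. Limd2 (-0.46 ± 0.10), Vtn (-0.38 ± 0.11), Gnb2 (-0.32 ± 0.09), Acsbg1 (-0.30 ± 0.08), Rnf112 (-0.30 ± 0.08), Fkbp8 (-0.28 ± 0.08), Itm2c (-0.25 ± 0.07) and 2310022B05Rik (-0.55 ± 0.16) were also called. Gm30238, an unclassified transcript, had 63.2, 69.1 and 84.7 against 25.6 and 29.3 (-1.40 ± 0.34). The remaining genes, with a mean count under 50 and named after their values were seen, were Gm1840 (-2.42 ± 0.55) and Gm45104 (-3.73 ± 0.99), and they were at 3.12 to 7.23 and 0.00 to 4.52 normalized counts in Sal, as low as in PTZ45. Gm45104 was also called lower in CBP-ifKOs (-3.22, adjusted p = 2.1e-05), with 30.4, 52.5 and 45.7 normalized counts in PTZ0 and 2.10, 6.998 and 4.72 in PTZ45, and was the 1 gene of the 12 called lower in both genotypes. The call of each of the 12 genes was lost in at least 4 of 16 alternatives.

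Between kindled mice without the last injection and mice that had never been kindled, few genes were called. None of the 213 genes was among them, and 1 of the 12 genes called lower was. In this comparison of PTZ0 with Sal by DESeq2, 2 of 35602 genes were higher (0.00562%) and 1 was lower (0.00281%). Against Sal, 152 of the 213 genes were called higher in PTZ45, in a comparison that shares the PTZ45 libraries and called 163 of 17367 genes higher (0.939%) and 41 lower (0.236%). Both PTZ45 libraries were above all Sal libraries in 202 of the 213 genes, beside 16.7% of all genes tested. For Fos the log2 fold change was 6.68 against PTZ0 and 6.08 against Sal, for Arc 2.77 and 2.45, and for Btg2 4.17 and 3.95.

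The same injection gave a smaller response in CBP-ifKOs that had received the same kindling injections. The paper reports that no CBP-ifKO came to have progressive seizures under this treatment, whereas every control did. The targeted gene, Crebbp, had 2193, 2057 and 2039 normalized counts in Control PTZ0, 2429 and 2248 in Control PTZ45, 1278, 1153 and 1226 in CBP-ifKO PTZ0 and 1222, 1276 and 1061 in CBP-ifKO PTZ45, lower in all CBP-ifKO libraries. In CBP-ifKOs 16 of 26374 genes were called higher (0.0607%) and 7 lower (0.0265%), and 15 of these 16, or 15 of the 213, were called in controls, with which they share no library. Of the 213 genes, 187 had a positive log2 fold change in CBP-ifKOs (9037 of all 17982 genes did) and the median was 0.16 beside 0.78 in controls. The 213 genes were selected by their rise in controls, which raises the control median, so nothing is read from the gap between these medians. The immediate early transcription factors held 441 to 464 CPM (scaled to the library total) in CBP-ifKO PTZ0 and 548 to 599.7 in CBP-ifKO PTZ45, beside 518 to 555 in Control PTZ0 and 2086 and 1743 in Control PTZ45.

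The difference of the responses was tested directly. The interaction was called for 82 of 19370 genes, all with the smaller response in CBP-ifKOs (0.423%), and for none in the other direction by DESeq2, where 209 genes had an unadjusted p under 0.05 and edgeR called none as well. Without Control PTZ45 replicate 1 the number was 50. Of the 82 genes, 81 were among the 213, which is partly given because both fits use the same control libraries. Among the interactions called at a mean count of 50 or more, Fosb differed most, with 23.1, 23.9 and 21.3 normalized counts in CBP-ifKO PTZ0 and 41.0, 53.0 and 82.5 in CBP-ifKO PTZ45, a log2 fold change of 1.37 ± 0.35 that was not called (adjusted p = 0.095) and an interaction of -5.08 ± 0.44 (adjusted p = 2.7e-27). Fos still rose in CBP-ifKOs, from 13.4 to 15.8 normalized counts to 163 to 288 (4.03 ± 0.30), with an interaction of -2.65 ± 0.34. For Arl4d and Gadd45g the response of CBP-ifKOs was 0.20 ± 0.27 and 0.02 ± 0.30, neither of them called.

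The genes differed in how much of the response CBP-ifKOs kept. Dusp1 rose by 1.70 ± 0.22 on the log2 scale in CBP-ifKOs beside 2.75 in controls, with a called difference of -1.05 ± 0.26 (adjusted p = 0.018). Apold1, an endothelial gene, rose by 1.45 ± 0.29 beside 1.69, and the difference of -0.25 ± 0.37 was not called, an estimate that leaves room for a difference of either sign. Ccn1 rose by 1.76 ± 0.42 in CBP-ifKOs beside 3.22 in controls, and Adamts1 had 0.57 ± 0.38, not called, beside 1.21. Their differences of -1.46 ± 0.74 and -0.63 ± 0.47 were not called, and the estimate for Ccn1 was larger in size than that of Dusp1. The Crebbp deletion is confined by its promoter to excitatory neurons. CBP-ifKOs and controls also differ in lane and, by the paper, in the seizures they developed. What sets the differences in response was not tested. Of the genes that rose at least 4-fold in controls the interaction was called in 30 of 36, and of those that rose by less than 2-fold in 29 of 131, beside 0.423% of all genes tested. These groups were formed by the control fold change, which enters the interaction, so nothing is read from these counts.

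**Figure D5:**
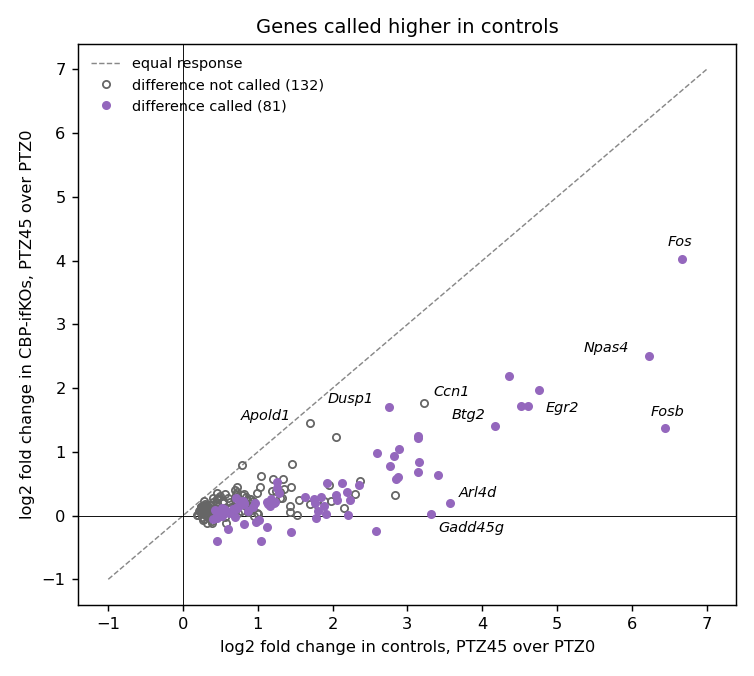
Log2 fold change of PTZ45 over PTZ0 in controls against that in CBP-ifKOs for the 213 genes called higher in controls, filled for the 81 genes with a called difference of the responses, with a dashed line where both are equal. All but 1 of the points lie under the line, with Apold1 near it and Fosb, Arl4d and Gadd45g far under it. The genes were selected by their rise in controls, which favours points under the line.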

How the data were processed

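Total RNA of hippocampus was sequenced as single-end reads. The deposited table holds raw counts per gene, which the authors made by trimming with Trim Galore 0.6.4, aligning to GRCm38 with STAR 2.6.1, discarding reads of mapping quality 10 or less and counting exonic reads (Ensembl release 99) with Rsubread. Of 18 count columns, 1 matched no sample label used here and was left out. Genes were placed with GENCODE M21, which matched 99.566% of 55471 identifiers.

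Each pair of groups was fitted alone with DESeq2 1.42.0 (R 4.3.3), after genes without a count were removed and with independent filtering. These fits gave log2 fold changes with SE, Wald tests and Benjamini-Hochberg adjusted p-values (threshold 0.05). Normalized counts came from a single scaling over all 17 libraries and not from these fits. The interaction was fitted over the 4 PTZ0 and PTZ45 groups. CPM are counts scaled to the library total. edgeR 4.0.16, sva 3.50.0, TMM size factors, other filters, a fold threshold, a GC correction, a replicate block and leaving out each library were alternatives. The scripts were tested on simulated data. GC content came from the longest transcript. Genes named were members of the lists, the 20 largest rises and up to 12 falls, of which 10 qualified (mean count 50 or more, no overlap), the 5 most abundant called genes per direction, the 10 largest interactions per direction and up to 10 called genes inside another gene. Others are said to be chosen afterwards. The members and lists were chosen with earlier results of these data known.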

Additional observations from a re-analysis of the deposited data

Results flagged for a closer look

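The response to the last injection differed between controls and CBP-ifKOs for 82 genes by the interaction test (DESeq2, adjusted p under 0.05). Among those with a mean count of 50 or more over the libraries of the fit, the largest log2 differences of CBP-ifKOs from controls were those of Fosb (-5.08), Npas4 (-3.71), Arl4d (-3.36), Gadd45g (-3.29), the Homer1 intronic transcript Gm47075 (-2.81), Egr2 (-2.79), Btg2 (-2.78), Egr4 (-2.77), Fos (-2.65) and Junb (-2.46). Under that level, 1700016P03Rik (-2.87) and Gm47938 (-2.82), named after their values were seen, were also called. The 10 genes from Fosb to Junb were called in all 19 alternatives. Controls were sequenced in lanes 3 and 4 and these CBP-ifKO libraries in lane 5. By the paper the genotypes also differed in the seizures they developed. The part of lane or seizures in the differences was not tested.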

How the results depend on the processing

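No called value of a named gene changed sign in any alternative that was run. In the genes called in controls no library overlapped between the groups, so this was given where a library was left out. In controls, 213 genes were called higher and 12 lower. A fold threshold of 0.5 on the log2 scale left 61 and 0, a fit of all 17 libraries gave 5 lower, edgeR gave 35 lower and no filter gave 7 lower. The replicate labels gave only 2 pairs, with correlations of deviations of 0.174 and 0.135. By library number PTZ45 replicate 2 would pair with PTZ0 replicate 3, with a correlation of 0.00223. The deviations of 2 PTZ45 libraries mirror each other, so these values are not independent and pairing was not established. With the replicate block, 91 genes were higher and 3 lower, and with block and GC correction 81 and 2. In CBP-ifKOs (16 higher, 7 lower), edgeR gave 8 and 1, the block 7 and 1, and block with GC correction 9 and 1, while the number lower was 4 with GC correction, 12 with TMM and 4 with all 17 libraries. Leaving out each library in turn gave 131 to 350 higher and 2 to 149 lower in controls, 9 to 17 and 3 to 12 in CBP-ifKOs, and 50 to 79 smaller and 0 to 3 larger responses in CBP-ifKOs by the interaction. Without PTZ45 replicate 1 only 126 of the 213 genes had an adjusted p, and 111 of them were called. The cause of these changes was not tested. Of 80 named genes called in controls, 39 lost the call in none of the alternatives in which they had an adjusted p. The p-values in controls rest on 2 PTZ45 libraries of 12052333 and 14483561 counts.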
